A study of Homo sapiens with 6 samples.

Results

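The 30 genes described here encode enzymes and regulators that bring pyruvate into mitochondria and burn it in the tricarboxylic acid (TCA) cycle. They were taken by gene symbol from a fixed list, which matched 30 of the 58656 gene rows of the deposited table. The list names genes by symbol and sets no threshold on their values, but it was drawn up with earlier results of these data known. All 30 passed the filter on low counts. The samples were 6 RNA sequencing libraries of MDA-MB-231, a human triple-negative breast cancer cell line. Of these, 3 came from cells given mitocurcumin, a curcumin derivative directed to mitochondria, at 5 µM for 9 h. The other 3 came from cells given its solvent, DMSO, for the same 9 h. All cells were grown in the same serum-containing medium, and a single cell line, dose and time were measured.

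Pyruvate from glycolysis crosses the inner mitochondrial membrane through the mitochondrial pyruvate carrier. The pyruvate dehydrogenase complex then converts it to acetyl-CoA, a step that dedicated kinases switch off and phosphatases switch on. Acetyl-CoA joins oxaloacetate to form citrate, and the cycle oxidises it back to oxaloacetate while loading electrons onto NADH and FADH2. Anaplerotic enzymes refill the cycle from pyruvate and glutamate, and cataplerotic enzymes draw carbon out of it, for instance toward phosphoenolpyruvate.

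Mitocurcumin-treated cells held far more PCK2 mRNA than DMSO-treated cells, 5.73-fold more, and somewhat more GLUD1 and PDP1 mRNA. They held less mRNA of OGDH, PDK3, IDH3G, PC, PDK2, IDH3A, DLD and DLAT. Of these OGDH fell by 38.9% and DLAT fell by 13.1%, the largest and the smallest of the 8 falls. The other 19 genes did not pass the test, so 3 of 30 (10%) were higher, 8 (26.7%) were lower and 11 (36.7%) changed in all. The calls are edgeR's, from its quasi-likelihood F-test on 16481 genes at a Benjamini-Hochberg adjusted p under 0.05, by which 14.7% of all tested genes were higher, 17.8% were lower and 32.5% changed. The share of the 30 that changed lay near that of all genes. The scarcest of the 30 averaged 10.97 CPM (counts scaled to the library total), and among the 9401 genes at or above it, a background chosen after the values were seen, 19.5% were higher, 25.6% were lower and 45.1% changed.

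Most of the changes were small. The median log2 fold change was -0.07 over the 30 genes and -0.01 over all tested genes. Taken without sign, the median was 0.12 over the 30 genes and 0.23 over all tested genes. In log2 fold change, 10 of the 30 were above 0 and 20 were below, beside 8132 and 8349 of all tested genes. Only PCK2 and OGDH changed by at least 1.5-fold, a size that 9.74% of all tested genes reached with a call. The CPM ranges of the groups did not overlap for 17 of the 30 genes, or 56.7%, of which 5 were higher and 12 lower after mitocurcumin. Over all tested genes 44.9% did not overlap, 21.2% with mitocurcumin higher and 23.7% with it lower. Together the 30 genes took 0.239% to 0.241% of all counts in the mitocurcumin libraries and 0.245% to 0.251% in the DMSO libraries.

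**Figure D1:**
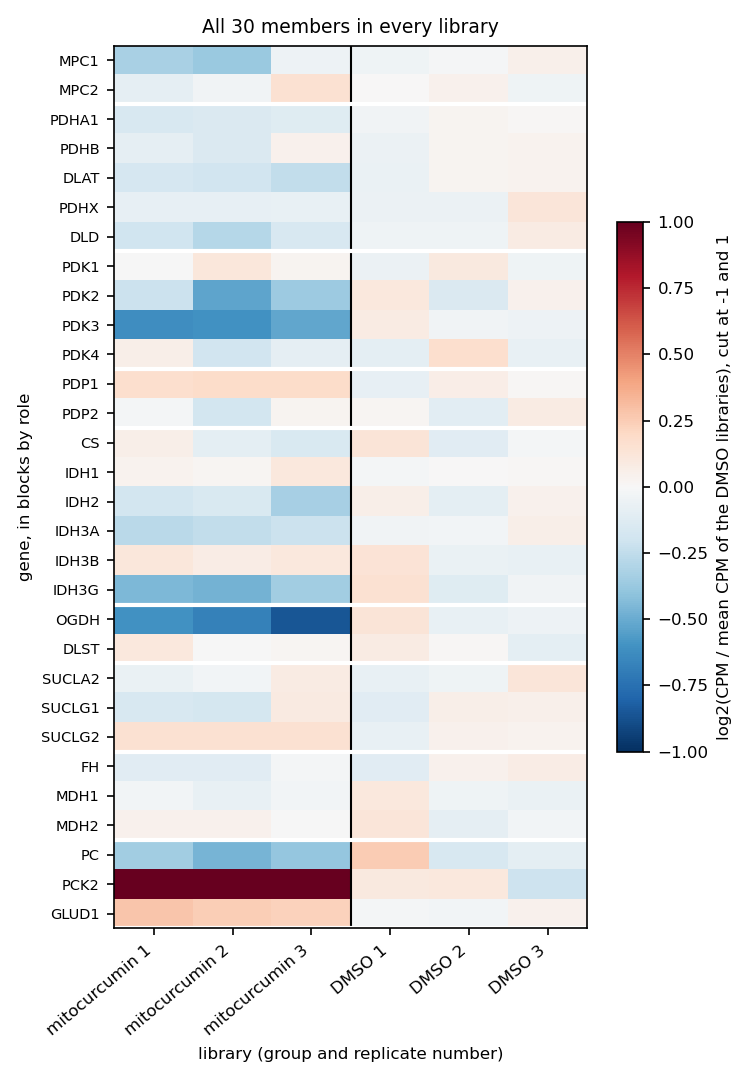
Each row is a gene, in blocks by role, and each column is a library, mitocurcumin first. Colour gives log2 of CPM over the mean CPM of the DMSO libraries, cut at -1 and 1. PCK2 is off the scale in all 3 mitocurcumin libraries, OGDH and PDK3 are darkest blue there, and most other rows stay pale.

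Total counts ran from 23146822 to 29104681 per library. DMSO replicate 1 stood apart from the other DMSO libraries on the second principal component, at 31.3 against -17.1 and -17.2. Of the 30 genes, 11 had their highest DMSO value in that library, which is near an even split among 3 libraries. The same count over all tested genes was not made. The coefficient of variation within a group had a median over the 30 genes of 4.12% in mitocurcumin libraries and 6.41% in DMSO libraries. Replicates are marked as biological, but no label says that each was its own culture, so a p-value here speaks of the spread among these 6 libraries, which may be partly technical. The 6 mesenchymal and basal markers of MDA-MB-231 (VIM, CD44, AXL, CAV1, ANXA1 and MSN) were abundant. They summed to 7819 to 8054 CPM in mitocurcumin libraries and 7574 to 7643 CPM in DMSO libraries. ANXA1 was higher, at 769 CPM after mitocurcumin and 610 CPM in DMSO, and the others did not pass the test. Of 6 receptor and luminal genes, ESR1, PGR and FOXA1 were below 1 CPM in both groups. EPCAM averaged 20.1 CPM after mitocurcumin and 22.3 CPM in DMSO, and CDH1 averaged 2.43 CPM after mitocurcumin and 1.68 CPM in DMSO, and neither passed the test. GATA3 was lower, at 9.25 CPM after mitocurcumin and 13.7 CPM in DMSO. The 6 summed to 31.9 to 32.8 CPM in mitocurcumin libraries and 37.2 to 40.3 CPM in DMSO libraries. Of 8 markers of leukocytes, endothelium and fibroblasts, CD3E, CDH5, PDGFRA and DCN were below 1 CPM. The 8 summed to 87.2 to 107 CPM in mitocurcumin libraries and 121 to 132 CPM in DMSO libraries, most of it CD68, and CD68 and PECAM1 were lower after mitocurcumin. The part of these markers in the results was not tested. In bulk RNA, fewer cells of one kind and less RNA per cell cannot be told apart.

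All 3 genes that feed or drain the cycle changed, 2 up and 1 down. PCK2 encodes mitochondrial phosphoenolpyruvate carboxykinase, which turns oxaloacetate into phosphoenolpyruvate. PCK2 (Entrez 5106) lies on chromosome 14 from 24094311 to 24104125, plus strand, in GRCh38. The 150 bases before its start are shown because it had the largest change of the 30 genes. They are from RefSeq's GRCh38.p14 promoter table, chr14:24094161-24094310, plus strand, 5′ to 3′, and no capitals are used because none of the motifs searched was found.
PCK2: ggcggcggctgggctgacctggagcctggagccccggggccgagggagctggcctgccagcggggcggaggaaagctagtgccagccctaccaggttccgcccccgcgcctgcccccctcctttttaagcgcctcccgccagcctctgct

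PCK2 had 44.9, 43.2 and 43.9 CPM in the mitocurcumin libraries, against 8.18, 8.20 and 6.61 CPM in the DMSO libraries. Every treated library stood several-fold above every DMSO library, and the treated libraries lay close together. The mean was 44.0 ± 0.833 CPM after mitocurcumin and 7.66 ± 0.910 CPM in DMSO (SD, n = 3 each). The log2 fold change was 2.52 ± 0.10 (SE), with an adjusted p of 2.57e-11 in edgeR, and PCK2 ranked 37 of 16481 tested genes by size of change in either direction. NRL lies over PCK2 on the opposite strand, but had 113 counts in all libraries together, beside 3951 for PCK2.

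GLUD1 encodes glutamate dehydrogenase, which moves glutamate carbon into the cycle as 2-oxoglutarate. Its levels were 232, 227 and 224 CPM in the mitocurcumin libraries, against 189, 187.5 and 197 CPM in the DMSO libraries. All treated libraries were above all DMSO libraries, by a modest margin. The log2 fold change was 0.25 ± 0.05, a 19.0% higher level, with an adjusted p of 0.00105 in edgeR. GLUD2, an almost identical retrocopy, had a log2 fold change of -0.23 and an adjusted p of 0.387 in edgeR, and how reads were split between the copies is not given in the sources used here.

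PC encodes pyruvate carboxylase, which makes oxaloacetate from pyruvate and so refills the cycle. PC had 32.5, 29.9 and 31.6 CPM in the mitocurcumin libraries, against 49.2, 36.9 and 38.6 CPM in the DMSO libraries. The groups did not overlap, and DMSO replicate 1 was well above the other DMSO libraries. The log2 fold change was -0.41 ± 0.10 with an adjusted p of 0.00524 in edgeR. Without DMSO replicate 1 it was -0.27 with an adjusted p of 0.00919. PCK2 and PC act on either side of oxaloacetate, and they moved in opposite directions. The ratio of their CPM, formed after the values were seen, was 1.38, 1.44 and 1.39 in mitocurcumin libraries, against 0.166, 0.222 and 0.171 in DMSO libraries. Such ratios are not per length, so only their difference between the groups can be read.

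**Figure D2:**
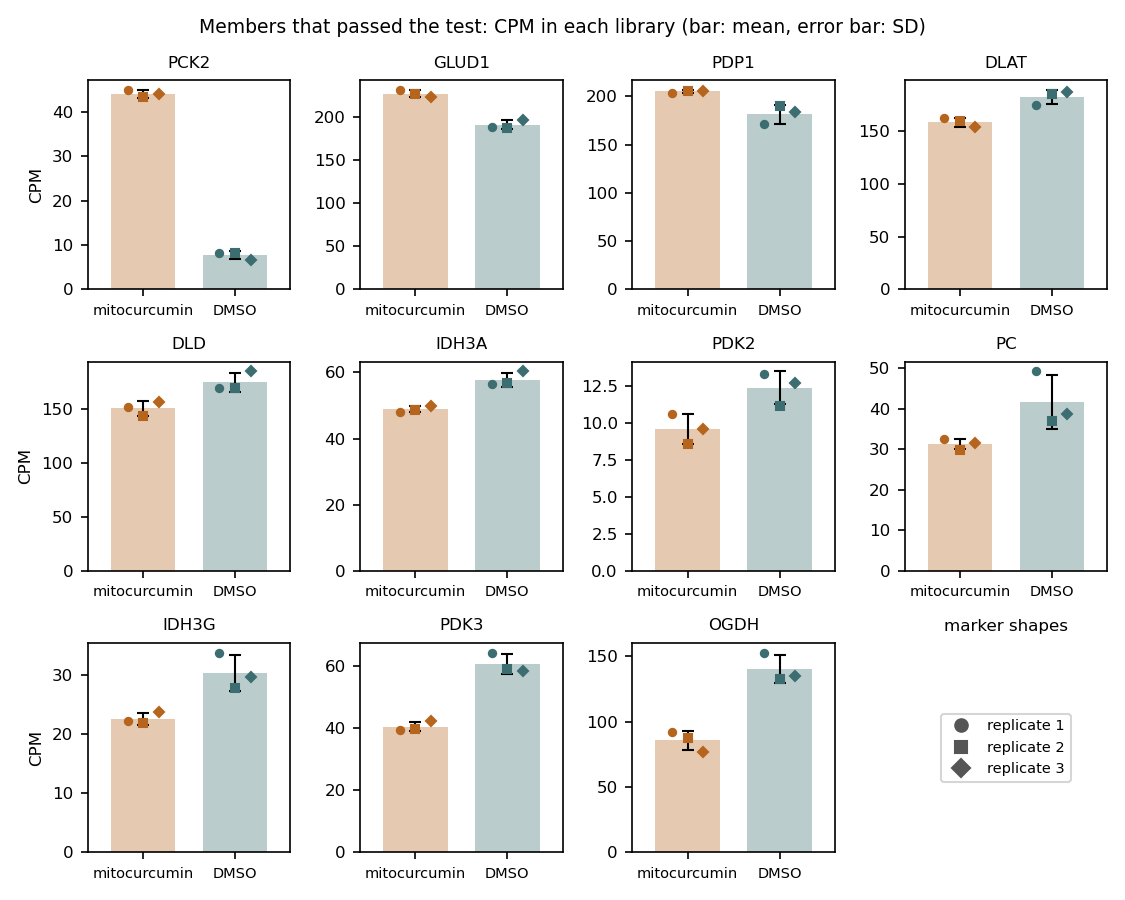
CPM of the 11 genes that passed the test, with a panel for each gene, mitocurcumin left of DMSO. Bars are means, error bars are SD (n = 3), and points are libraries, with a marker shape for each replicate number. In every panel the points of the groups do not overlap, and the gap is widest for PCK2.

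At the gate of pyruvate entry, neither subunit of the mitochondrial pyruvate carrier passed the test. MPC1 had 19.2, 18.6 and 23.2 CPM in mitocurcumin libraries, against 23.3, 23.9 and 25.0 CPM in DMSO libraries, with a log2 fold change of -0.24 (95% interval -0.46 to -0.02) and an adjusted p of 0.0928 in edgeR. Its groups did not overlap, but mitocurcumin replicate 3 came close to the lowest DMSO library. MPC2, the partner subunit, had a log2 fold change of 0.01 (95% interval -0.15 to 0.18). The difference between the subunits was not tested.

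In the pyruvate dehydrogenase complex, 2 of 5 subunits fell and the other 3 did not pass the test. All 5 log2 fold changes were below 0. DLAT encodes the acetyltransferase core, called E2, which carries lipoate and hands the acetyl group to CoA. DLAT had 162, 159 and 154 CPM in mitocurcumin libraries, against 174, 186 and 187 CPM in DMSO libraries. The groups were separate by a gap smaller than the range among the DMSO libraries. Its log2 fold change was -0.20 ± 0.05, with an adjusted p of 0.00767 in edgeR. The call was lost without mitocurcumin replicate 3, at an adjusted p of 0.0535, and without DMSO replicate 2, at 0.0521.

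DLD encodes dihydrolipoamide dehydrogenase, called E3, which reoxidises lipoate and is shared with the oxoglutarate dehydrogenase complex, the branched-chain dehydrogenase and the glycine cleavage system. DLD had 152, 143 and 157 CPM in mitocurcumin libraries, against 169.5, 169.9 and 185 CPM in DMSO libraries. Mitocurcumin replicate 2 was the lowest and DMSO replicate 3 the highest. The log2 fold change was -0.21 ± 0.06, with an adjusted p of 0.00845 in edgeR. Without mitocurcumin replicate 2 the adjusted p was 0.0817, and without DMSO replicate 3 it was 0.0640. PDHA1 and PDHB, the subunits of the decarboxylase E1, had log2 fold changes of -0.14 and -0.06, and PDHX, which tethers E3 to the core, had -0.08. Of these 3, PDHA1 came closest to the threshold, at 109 ± 1.58 CPM after mitocurcumin and 120.1 ± 2.96 CPM in DMSO (SD, n = 3 each), with an adjusted p of 0.0563 in edgeR.

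The 4 pyruvate dehydrogenase kinases phosphorylate E1 and switch the complex off. PDK3 and PDK2 fell, and PDK1 and PDK4 did not pass the test. PDK3 had 39.3, 39.8 and 42.1 CPM in mitocurcumin libraries, against 64.0, 59.0 and 58.2 CPM in DMSO libraries. The groups were far apart for their spread. PDK3 fell by 33.1%, a log2 fold change of -0.58 ± 0.07, with an adjusted p of 1.06e-05 in edgeR.

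PDK2 had 10.6, 8.57 and 9.56 CPM in mitocurcumin libraries, against 13.3, 11.1 and 12.7 CPM in DMSO libraries. The highest treated library lay just under the lowest DMSO library. The log2 fold change was -0.37 ± 0.13, with an adjusted p of 0.0366 in edgeR. The call was lost without any one of mitocurcumin replicates 2 and 3 and DMSO replicates 1 and 3, at adjusted p values of 0.180, 0.102, 0.0558 and 0.105 in that order. PDK1, a known hypoxia target, had 89.3 ± 3.71 CPM after mitocurcumin and 86.7 ± 5.31 CPM in DMSO (SD, n = 3 each), with a 95% interval of the log2 fold change from -0.09 to 0.18. PDK4, known as the starvation-induced kinase, had an interval from -0.32 to 0.17. The CPM ratio of PDK3 to PDK1, also formed after the values were seen, was 0.456, 0.426 and 0.478 in mitocurcumin libraries, against 0.769, 0.636 and 0.693 in DMSO libraries.

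The phosphatases PDP1 and PDP2 remove those phosphates and switch the complex back on. PDP1 had 203, 206 and 206 CPM in mitocurcumin libraries, against 171, 190.3 and 183 CPM in DMSO libraries. All treated libraries were above all DMSO libraries, and the treated ones varied little. PDP1 rose by a log2 fold change of 0.18 ± 0.05, with an adjusted p of 0.0192 in edgeR. The adjusted p was 0.0517 without mitocurcumin replicate 2 and 0.0713 without mitocurcumin replicate 3. PDP2 had a log2 fold change of -0.06, and its groups overlapped.

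From citrate to 2-oxoglutarate, 2 of the 3 subunits of the NAD-dependent isocitrate dehydrogenase fell. IDH3A, the catalytic subunit, had 48.1, 48.7 and 50.0 CPM in mitocurcumin libraries, against 56.6, 56.7 and 60.3 CPM in DMSO libraries. The groups were tight and did not overlap. IDH3A had a log2 fold change of -0.24 ± 0.07, with an adjusted p of 0.0108 in edgeR. The call was lost without mitocurcumin replicate 1, mitocurcumin replicate 2 or DMSO replicate 3, at adjusted p values of 0.0632, 0.0535 and 0.0617.

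IDH3G, a regulatory subunit, had 22.2, 21.9 and 23.8 CPM in mitocurcumin libraries, against 33.7, 27.8 and 29.6 CPM in DMSO libraries. Every treated library was below every DMSO library. IDH3G fell by 25.4%, a log2 fold change of -0.42 ± 0.10, with an adjusted p of 0.00270 in edgeR. IDH3B, the other regulatory subunit, had 51.8, 50.5 and 51.5 CPM in mitocurcumin libraries, against 52.8, 45.8 and 45.7 CPM in DMSO libraries. Its groups overlapped, and its log2 fold change was 0.09 with a 95% interval from -0.07 to 0.25. The CPM ratios of IDH3G and of IDH3A to IDH3B were also formed after the values were seen. That of IDH3G was 0.429, 0.433 and 0.462 in mitocurcumin libraries, against 0.638, 0.607 and 0.648 in DMSO libraries. That of IDH3A was 0.927, 0.965 and 0.970 in mitocurcumin libraries, against 1.07, 1.24 and 1.32 in DMSO libraries.

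Neighbouring genes overlap IDH3G and IDH3A on the opposite strand, and whether the counting used strand is not given in the sources used here. SSR4, over IDH3G, averaged 34.4 CPM after mitocurcumin and 25.7 CPM in DMSO, with a log2 fold change of 0.42 ± 0.10 and an adjusted p of 0.00387 in edgeR, the other direction from IDH3G. ACSBG1, over IDH3A, averaged 21.7 CPM after mitocurcumin and 26.5 CPM in DMSO, with a log2 fold change of -0.29 ± 0.09 and an adjusted p of 0.0261 in edgeR, the same direction as IDH3A. If strand was not used, reads of each pair cannot be told apart.

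The promoters of the 3 subunit genes are shown because they share a TGCGCA, the core of the site bound by NRF1, a regulator of nuclear genes for mitochondrial proteins, while the genes did not share a call. Each stretch is 60 bases of RefSeq's GRCh38.p14 promoter table, 5′ to 3′ in the direction of the gene, with the TGCGCA in capitals. IDH3A is chr15:78149307-78149366 on the plus strand, IDH3B is chr20:2664327-2664386 on the minus strand and IDH3G is chrX:153794400-153794459 on the minus strand.
IDH3A: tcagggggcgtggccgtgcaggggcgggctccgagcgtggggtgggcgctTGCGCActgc
IDH3B: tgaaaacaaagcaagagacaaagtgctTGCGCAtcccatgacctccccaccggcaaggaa
IDH3G: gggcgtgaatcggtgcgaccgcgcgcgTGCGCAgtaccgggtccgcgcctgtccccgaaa

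The TGCGCA of IDH3A stands right at the start of the gene and that of IDH3G close before it, while that of IDH3B lies farther upstream. The remaining genes of this stretch of the cycle did not pass the test. Citrate synthase, CS, which joins acetyl-CoA to oxaloacetate, had 188 ± 14.2 CPM after mitocurcumin and 197 ± 16.6 CPM in DMSO (SD, n = 3 each). IDH1, the cytosolic NADP-dependent isocitrate dehydrogenase, had a log2 fold change of 0.06 (95% interval -0.07 to 0.18). IDH2, its mitochondrial counterpart, had -0.22 (95% interval -0.47 to 0.03), with 10.7, 10.9 and 9.63 CPM in mitocurcumin libraries, against 12.6, 11.3 and 12.5 CPM in DMSO libraries. The groups did not overlap for either gene, and the adjusted p in edgeR was 0.532 for IDH1 and 0.174 for IDH2.

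The deepest fall was in the oxoglutarate dehydrogenase complex, which makes succinyl-CoA and NADH and is a control point of the cycle. OGDH (Entrez 4967; chromosome 7, 44606627 to 44709066, plus strand, GRCh38) encodes its E1 subunit. OGDH had 91.9, 87.6 and 77.1 CPM in mitocurcumin libraries, against 152, 133 and 135 CPM in DMSO libraries. The highest treated library was far below the lowest DMSO library. The mean was 85.5 ± 7.61 CPM after mitocurcumin and 139.9 ± 10.8 CPM in DMSO (SD, n = 3 each), so that OGDH fell by 38.9%. The log2 fold change was -0.71 ± 0.07, with an adjusted p of 1.32e-06 in edgeR.

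DLST, the E2 core of the same complex, did not pass the test. It had 109, 101 and 102 CPM in mitocurcumin libraries, against 107, 102 and 94.5 CPM in DMSO libraries, and its log2 fold change was 0.04 with a 95% interval from -0.09 to 0.17. That interval and that of OGDH, from -0.86 to -0.56, do not meet. The CPM ratio of OGDH to DLST, formed after the values were seen, was 0.844, 0.870 and 0.752 in mitocurcumin libraries, against 1.42, 1.31 and 1.43 in DMSO libraries. The E3 subunit is DLD, described with pyruvate dehydrogenase.

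**Figure D3:**
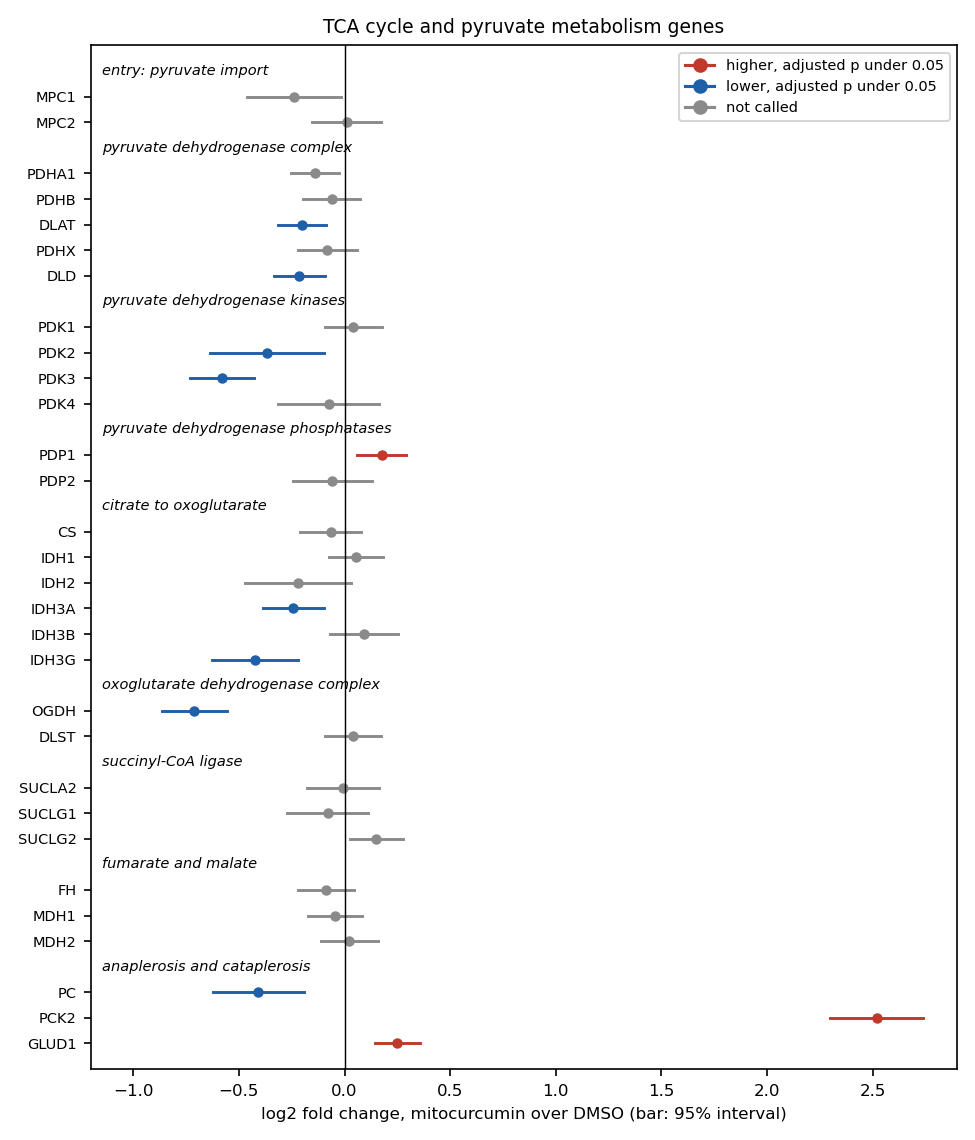
Log2 fold change of mitocurcumin over DMSO for the 30 genes in blocks by role. Points are estimates and lines are 95% intervals, coloured by call. PCK2 stands alone at 2.52, and OGDH and PDK3 lie farthest to the left at -0.71 and -0.58. The blocks of succinyl-CoA ligase and of fumarate and malate hold no call.

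From succinyl-CoA to oxaloacetate none of the 6 genes of the list passed the test. At an unadjusted p under 0.05 there was only SUCLG2, and DESeq2 and limma voom called none. Some edgeR alternatives did call SUCLG2, at an adjusted p of 0.0308 with upper-quartile factors and 0.0345 with a CPM of at least 1 in 3 libraries. FH was called without DMSO replicate 1, at an adjusted p of 0.0402 in edgeR. Succinyl-CoA ligase makes succinate with a nucleotide triphosphate. It pairs SUCLG1 with either SUCLA2 or SUCLG2. SUCLG2, the GTP-forming subunit, had 89.8, 90.3 and 90.1 CPM in mitocurcumin libraries, against 76.9, 83.4 and 82.9 CPM in DMSO libraries. The treated libraries were nearly equal and all above DMSO, with a log2 fold change of 0.15 (95% interval 0.03 to 0.28) and an adjusted p of 0.0601 in edgeR. SUCLA2, the ATP-forming subunit, had a log2 fold change of -0.01 and SUCLG1 -0.08. FH, which hydrates fumarate, had -0.09, and the malate dehydrogenases MDH1 of the cytosol and MDH2 of the mitochondria had -0.04 and 0.02. The widest of the 95% intervals among these 6 genes was that of SUCLG1, from -0.27 to 0.11. Succinate dehydrogenase also works in this stretch but is not in the list. Its subunit SDHA was lower, with a log2 fold change of -0.45, and is described with the related genes.

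Levels were compared between genes as CPM per kb of annotated exon, from GENCODE 29 exons. GLUD1 was the highest of the 30 in both groups, at 74.9 ± 1.28 CPM per kb after mitocurcumin and 62.9 ± 1.71 CPM per kb in DMSO (SD, n = 3 each). CS, at 59.7 ± 4.51 CPM per kb after mitocurcumin and 62.6 ± 5.27 CPM per kb in DMSO, came next. In DMSO libraries GLUD1, CS and FH differed by less than the spread between libraries. PCK2 was the lowest of the 30 in DMSO libraries, at 2.40 ± 0.284 CPM per kb, and reached 13.8 ± 0.261 CPM per kb after mitocurcumin, which placed it 21 of 30. OGDH was 18 of 30 after mitocurcumin, at 17.7 ± 1.57 CPM per kb, and 12 of 30 in DMSO, at 28.97 ± 2.24 CPM per kb. These levels rest on the union of annotated exons, which was 14253 bases for PDK1, the longest of the 30, and which exons the cells use was not tested.

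**Figure D4:**
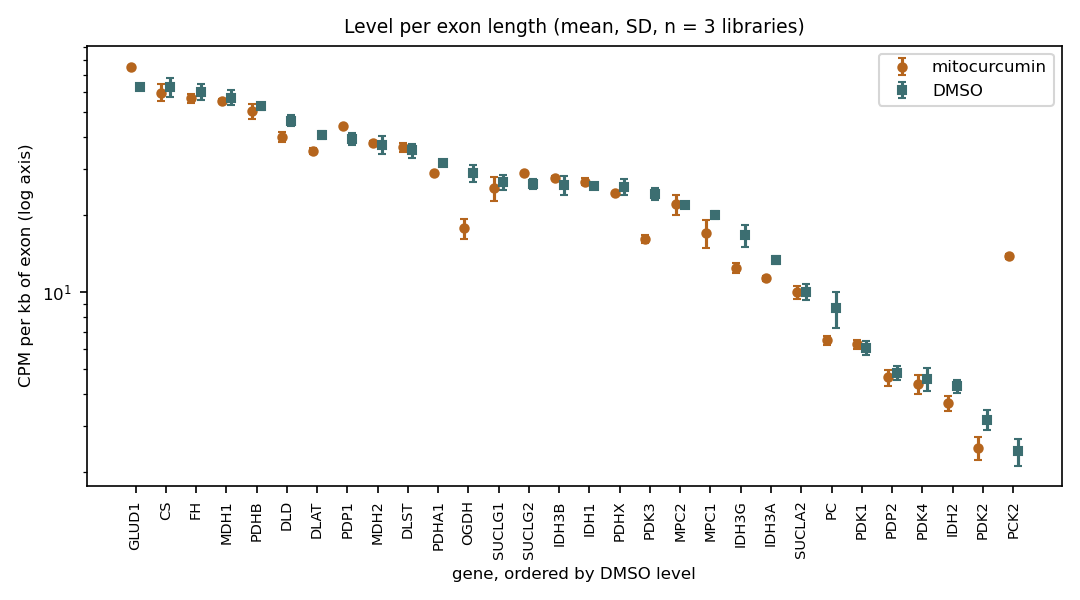
Level of each of the 30 genes in CPM per kb of exon on a log axis, mitocurcumin circles left of DMSO squares, with SD over 3 libraries. Genes are ordered by their DMSO level. The order is largely kept, except that PCK2 leaves the last place and OGDH and PDK3 lie below their neighbours after mitocurcumin.

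Promoter windows were found for 28 of the 30 genes, without PDP1 and OGDH. Each holds 250 bases before and 50 bases after the start. In these windows 6 short motifs were searched on both strands, and the share of windows holding each was set beside that of 12753 tested genes. The C/EBP-ATF response element core TGATGNAA was in 0 of 28 windows, PCK2 included, and in 1.94% of all windows. TGCGCA was in 4 of 28, or 14.3%, namely MPC2 and the 3 IDH3 genes, and in 12.7% of all. CCGGAAG, bound by ETS factors such as GABP, was in 14.3% (IDH3B, IDH3G, DLST and MDH2) and in 17.8% of all. The hypoxia response core ACGTG was in 25% (PDHB, DLAT, PDK3, PDP2, IDH1, IDH3G and PC) and in 25.9% of all. AAGGTCA, bound by oestrogen-related receptors, was in SUCLA2 alone, 3.57%, and in 2.72% of all, and TGACGTCA, the cyclic AMP response element, in 0 and in 3% of all. No motif of the 6 lies within another. None of the 6 was in 15 of the 28 windows, and each share lay near that of all windows.

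Genes next to these in the pathway were listed by role. Of 54 such genes 48 were tested, and 5 were higher and 9 lower, so 29.2% changed, beside 32.5% of all tested genes. Their median log2 fold change was -0.10, beside -0.01 over all tested genes. Of the 12 with the largest change, 11 are named here. Glutamate entry held the largest rises. GPT2, the mitochondrial alanine aminotransferase, averaged 81.5 ± 3.63 CPM after mitocurcumin and 21.5 ± 1.53 CPM in DMSO (SD, n = 3 each), with a log2 fold change of 1.92 ± 0.08 and an adjusted p of 2.01e-11 in edgeR. GOT1, the cytosolic aspartate aminotransferase, averaged 92.0 ± 2.09 CPM after mitocurcumin and 52.2 ± 3.14 CPM in DMSO, with a log2 fold change of 0.82 ± 0.06 and an adjusted p of 6.50e-08 in edgeR. Of the 8 tested genes of anaplerosis and glutamate entry in this list, 3 were higher and 3 were lower.

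Within the cycle itself, SDHA, the flavoprotein of succinate dehydrogenase, fell with a log2 fold change of -0.45 ± 0.06. It had 102 ± 5.11 CPM after mitocurcumin and 139.8 ± 1.10 CPM in DMSO (SD, n = 3 each). Its partner subunits SDHB, SDHC and SDHD did not pass the test, with log2 fold changes of -0.08, 0.11 and 0.13. ACO1, the cytosolic aconitase that also serves as an iron sensor, rose with 0.43 ± 0.05. LIAS, which builds the lipoate that DLAT and DLST carry, rose with 0.52 ± 0.13, and was the only one of 9 lipoate genes to pass. DHTKD1, the E1 of a sister complex in lysine breakdown that uses DLST, fell with -0.49 ± 0.08, as OGDH did. The adjusted p in edgeR of these 4 called genes ran from 6.05e-06 for ACO1 to 0.00595 for LIAS.

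Among genes that move carbon in and out, ME1, the cytosolic malic enzyme, rose with a log2 fold change of 0.37 ± 0.07. The aspartate-glutamate carrier SLC25A12 fell with -0.43 ± 0.10 and ATP-citrate lyase, ACLY, with -0.22 ± 0.06. Their adjusted p in edgeR was 0.000781 for ME1, 0.00293 for SLC25A12 and 0.00849 for ACLY. ME3, a mitochondrial malic enzyme, fell with -0.34 ± 0.11 and an adjusted p of 0.0203 in edgeR, and the dicarboxylate carrier SLC25A10 with -0.61 ± 0.19 and 0.0220. Both were highest in DMSO replicate 1. Without that library ME3 had -0.22 with an adjusted p of 0.0691 in edgeR, and SLC25A10 had -0.31 with an adjusted p of 0.126. SLC25A10 had 5.78, 5.33 and 5.40 CPM in mitocurcumin libraries, against 11.6, 6.65 and 7.04 CPM in DMSO libraries. Both calls were also lost without each of the mitocurcumin replicates in turn, and that of ACLY without mitocurcumin replicate 3, at 0.0620.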

How the data were processed

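RNA sequencing was analysed for 6 MDA-MB-231 libraries, 3 per group. Libraries were strand-specific and made from poly(A) mRNA, per the labels' protocols. Coordinates are on GRCh38, which the submitters' processing notes name, while the sources used here do not say which aligner or counter was run. Estimated counts, as deposited, were the main input. They were recognised from the values, of which 20.4% to 21.7% of those above 0 were whole (within 1e-06). The design had assumed whole counts, so they were rounded. A second deposited table gave log2 values, which when tested were log2 of the raw value over 1 factor per library, and was used in 1 alternative.

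Genes were tested with edgeR 4.0.16 (R 4.3.3), with TMM scaling, robust dispersion and its quasi-likelihood F-test. Genes were kept by the filterByExpr defaults (minimum count 10, minimum total 15), which left 16481, and p-values were adjusted over all of them by Benjamini-Hochberg. Calls were made at an adjusted p under 0.05. CPM used TMM-scaled totals, and figures used matplotlib 3.10.9. The analysis was tested on simulated data. The 30 genes, the related list, the markers and the motifs were chosen with earlier results of these data known. The rule was that all 30 genes are accounted for and, of related genes called, at most the 12 largest named. Results of a few listed genes are not reported here. The 17 alternatives covered other scalings, filters, thresholds and tools (DESeq2 1.42.0, limma 3.58.1), a replicate block and each library left out.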

Additional observations from a re-analysis of the deposited data

How the results depend on the processing

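Of the 11 genes called, 6 (PCK2, GLUD1, OGDH, PDK3, IDH3G and PC) kept their call and direction in all 17 alternatives, 5 lost the call in some, and 0 changed sign. Leaving out a library in turn gave 2 to 3 genes higher, 5 to 10 lower, and 5 to 8 related genes higher and 5 to 9 lower. The lower count was 5 without mitocurcumin replicate 2 or DMSO replicate 3, the related lower count 5 without mitocurcumin replicate 3, and the related higher count 8 without DMSO replicate 1. The median log2 fold change of the 30 genes was -0.0708, and -0.0434 with upper-quartile factors, -0.0484 with a CPM of at least 1 in 3 libraries and -0.0994 to -0.0188 over the left-out libraries. At an adjusted p under 0.01, 2 genes were higher and 6 lower. The cause was not tested.

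Of the 19 genes not called, 4 gained a call in some alternatives. These were MPC1, PDHA1 and FH without DMSO replicate 1, MPC1 also without mitocurcumin replicate 3, and SUCLG2 with upper-quartile factors or a CPM of at least 1. The sign changed for 7. SUCLA2 was at 0.0024 with DESeq2's size factors in edgeR, 0.0211 with upper-quartile factors, 0.0155 with a CPM of at least 1, 0.0025 in DESeq2 and 0.00059 with unrounded counts. Over left-out libraries SUCLA2 ran from -0.0522 to 0.0676, CS from -0.116 to 0.00043, MDH1 from -0.0652 to 0.0117, MDH2 from -0.0171 to 0.0879, MPC2 from -0.0640 to 0.0733, PDK4 from -0.129 to 0.0204 and PDP2 from -0.103 to 0.0117.

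With 3 libraries per group, correlations cannot settle whether replicate numbers pair the libraries. After each group's mean was taken off, same-numbered libraries had correlations of 0.101, 0.0170 and -0.0101. Those of differently numbered libraries ran from -0.109 to 0.0909. With the replicate number as a block, 3 genes were higher and 8 lower, as without it, and the related counts were 5 and 11. The smallest two-sided exact permutation p for 3 against 3 libraries is 0.1, so calls rest on edgeR's shared spread. A p that misses the threshold at this depth and number of libraries does not show that a gene is unaltered.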

Other observations

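LDHA and GOT2 of the related list were also called, and are named after their values were seen. LDHA, lactate dehydrogenase A, averaged 3255 ± 47.8 CPM after mitocurcumin and 3729 ± 51.5 CPM in DMSO (SD, n = 3 each), with a log2 fold change of -0.20 ± 0.05 and an adjusted p of 0.00416 in edgeR. GOT2, the mitochondrial aspartate aminotransferase, averaged 105 ± 4.73 CPM after mitocurcumin and 121 ± 7.88 CPM in DMSO, with a log2 fold change of -0.19 ± 0.06 and an adjusted p of 0.0244 in edgeR.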
